A study of Mus musculus with 4 samples.

Results

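DEAD and DEAH box RNA helicases made up 48 of the 18193 genes that the arrays measured with a probe set naming 1 gene. They were chosen by name alone: every gene whose symbol starts with Ddx or Dhx followed by a number was a member, apart from 3 such genes that the selection set aside and that are not analysed here. Each gene was read from its probe set with the highest mean over the 4 arrays. The members were 33 Ddx genes and 15 Dhx genes, spread over 15 chromosomes. Of these, 44 lay above the floor set for testing, a mean log2 value of 4.81. The other 4 were dim on all arrays, and no change was tested for them. They were Ddx25, Ddx4 and Ddx43, which are germ cell helicase genes, and Ddx60, an interferon-inducible gene.

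DEAD and DEAH box proteins bind RNA and use ATP to unwind short duplexes or to strip proteins from RNA, and the family is named in one-letter amino acid code after a motif of the ATP-binding core. Nearly every step in the life of an RNA employs its own members. Ribosome assembly in the nucleolus uses many of them to remodel the precursor of ribosomal RNA and its small nucleolar RNAs. The spliceosome uses others to rearrange its small nuclear RNAs, and further members act in mRNA export, in the start of translation and in mRNA decay. Growing T cells make large numbers of ribosomes, so the nucleolar members are best known as part of the growth machinery.

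RNA was measured on 4 Affymetrix arrays from T29, a mouse thymic lymphoma cell line that the design text describes as Ikaros-deficient. All samples carried the retroviral construct MigR1-MLER, which encodes an inducible dominant-negative Mastermind, the inhibitor of the co-activator that Notch needs for transcription. The tested cells received 100 nM 4OHT, the tamoxifen metabolite, for 24 h (2 samples), and the control cells received ethanol for 24 h (2 samples). The comparison asks which genes follow Notch-dependent transcription in this line. All arrays come from 1 cell line, untransduced cells were not analysed here, and an effect of 4OHT itself cannot be told apart from that of the construct. The labels do not say whether the 2 samples of a group came from separate cultures, so each p-value reflects the spread of these arrays alone, and that spread may be technical.

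Values are log2 expression values made by the authors with RMA, and array medians lay between 5.12 and 5.14. They give no read depth, and the number of arrays limits the precision. Levels of different probe sets cannot be read as relative amounts of RNA, so the results are changes of a gene between groups. Words such as dim, bright or highest mean describe the signal of a probe set alone. Of the T-lineage markers, Cd3d, Cd3e and Thy1 were bright (mean log2 values of 11.52 to 13.17 in the groups), while Cd2 was below the floor and Lck had no probe set naming 1 gene. Thy1 was higher with 4OHT (log2 change 0.38, limma adjusted p = 0.102). Cd3e and Cd3d were lower (-0.21 and -0.14), and none of these bright markers was called. Of 17 markers of B, myeloid, erythroid, stromal and endothelial cells with a probe set, 4 were above the floor, and none of those 4 was called. Summed over each whole list, log2 values were 25.05 and 25.19 with 4OHT, against 24.86 and 24.87 with ethanol, for the myeloid list, whose members went opposite ways. Of these, Itgam, which was too dim to test, was at 4.83 and 4.79 with 4OHT, against 4.10 and 3.96 with ethanol, and Cd14 was at 6.02 and 5.97 with 4OHT, against 6.37 and 6.34 with ethanol (limma adjusted p = 0.0616). The sums were 12.92 and 12.56 with 4OHT, against 13.31 and 13.42 with ethanol, for the erythroid list and 18.75 and 18.90, against 19.33 and 19.14, for the stromal and endothelial list, while the B cell list overlapped at 16.86 and 16.86, against 16.62 and 17.43. Control probe sets for 18S rRNA differed between groups in their 3′ minus 5′ log2 signal, which was 0.90 and 0.82 with 4OHT, against 0.05 and 0.32 with ethanol. For Actb it was 0.43 and 0.45, against 0.40 and 0.49. The part of these differences in the results below was not tested.

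Across the family, 4 helicase genes fell with 4OHT and none rose, and all 4 are ribosome assembly helicases: Ddx18, Ddx27, Ddx49 and Ddx56. A call is an adjusted p under 0.05 in limma, adjusted over all 11581 tested genes. The 4 are 4 of 44 tested members, against 7.47% of all tested genes called in either direction, 3.57% called lower and 3.90% called higher. The median log2 change of the 44 members, 4OHT minus ethanol, was -0.09, and that of all tested genes was -0.01. A change below 0 was found for 30 members, against 52.3% of all tested genes. At an unadjusted p under 0.05, 14 members were lower and 4 higher, against 13.2% and 12.3% of all genes. The arrays of the 2 groups did not overlap for 21 members that were lower and 7 that were higher, where the shares over all genes were 30.2% and 26.7%. At an adjusted p under 0.1, 10 members were lower and 2 higher (7.12% and 7.37% of all genes), and at one under 0.01 none passed (0.397% of all genes in either direction). Read from the probe set with the highest mean, the members had log2 changes between -0.50 and 0.50.

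**Figure D1:**
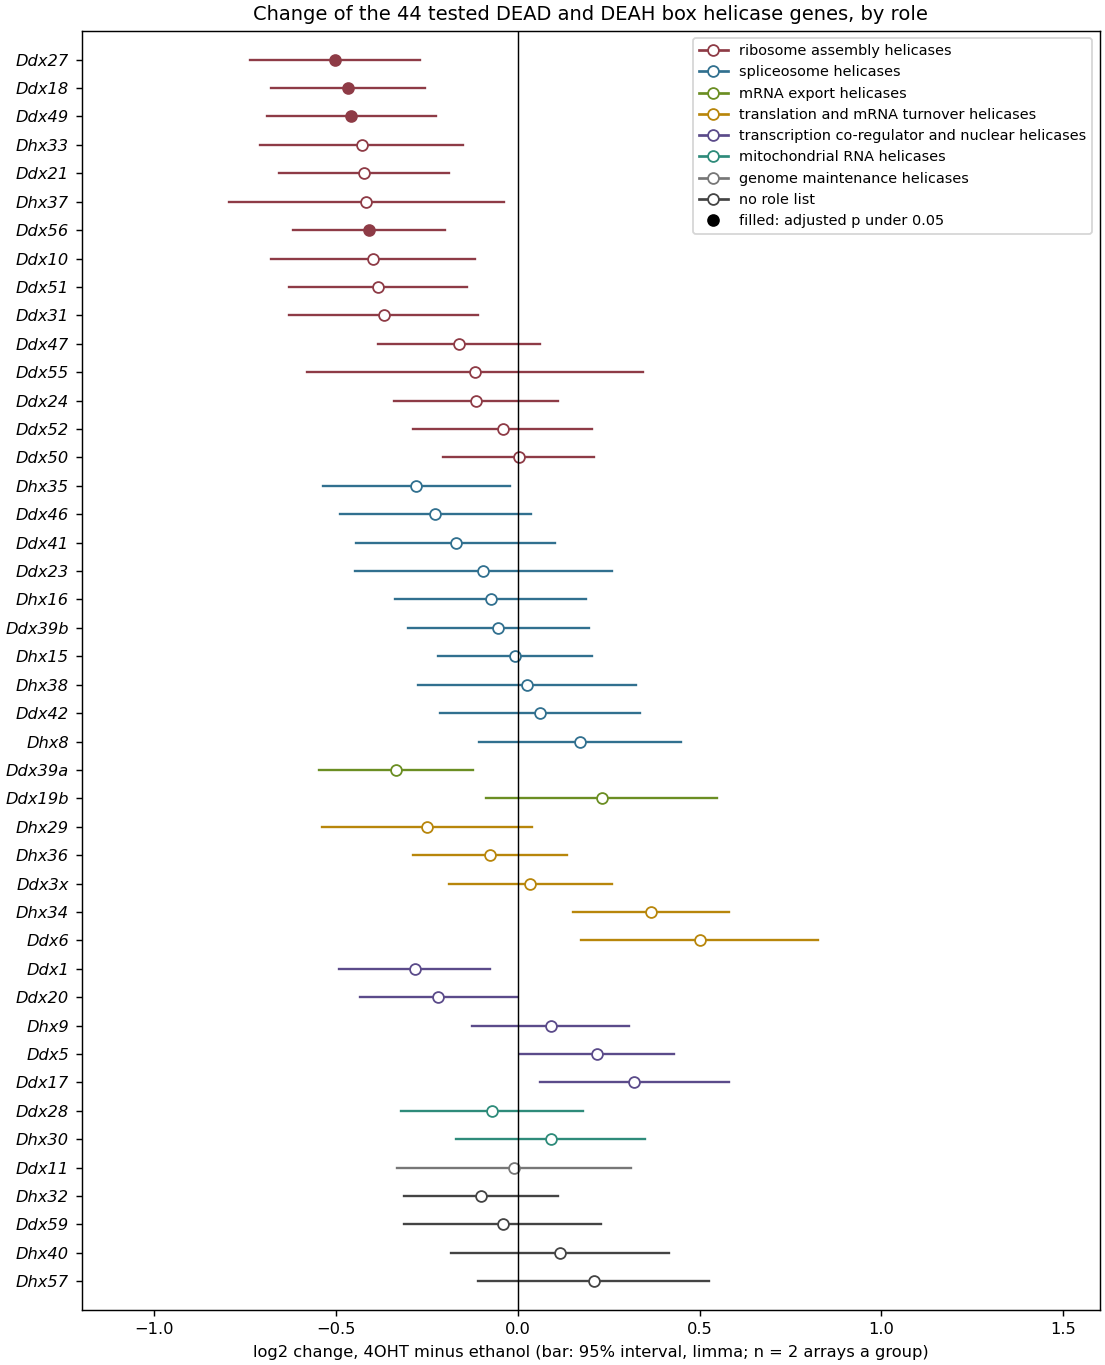
Log2 change with 4OHT, relative to ethanol, of the 44 tested helicase genes on the x axis, with limma's 95% interval as a bar and genes in rows ordered by role and change (n = 2 arrays a group). The 4 filled points are the called genes Ddx27, Ddx18, Ddx49 and Ddx56; all lie in the ribosome assembly group, where 10 of 15 intervals lie wholly below 0.

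The ribosome assembly helicases had the lowest median change of the role lists. Of 15 tested, 4 fell, none rose and 11 did not pass, against 3.57% of all tested genes called lower. Their median log2 change was -0.40, while that of the 29 other tested members was -0.01. At an unadjusted p under 0.05, 10 of the 15 were lower and none higher, against 13.2% and 12.3% of all tested genes. The arrays did not overlap for 12 of the 15, all lower. These 12 were found at a background share of 30.2%, so a lack of overlap in 1 gene says little. The grouping by role was made with earlier results of these data known, and no test sets the list apart from other genes.

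Ddx18, whose counterpart Has1 in the yeast Saccharomyces cerevisiae acts in the assembly of both ribosomal subunits, was at 10.53 and 10.51 on the 4OHT arrays, against 10.95 and 11.02 on the ethanol arrays. Both 4OHT arrays were lower than both ethanol arrays, and the gene fell 1.38-fold (log2 change -0.47 ± 0.08 SE, limma adjusted p = 0.0361). Ddx27, the counterpart of yeast Drs1 in large subunit assembly, was at 9.07 and 9.07 with 4OHT, against 9.64 and 9.49 with ethanol. It fell 1.42-fold, the largest change among the 44 tested members (log2 change -0.50 ± 0.09 SE, limma adjusted p = 0.0376).

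Ddx49, the counterpart of yeast Dbp8 in small subunit assembly, was at 9.22 and 9.15 with 4OHT, against 9.71 and 9.59 with ethanol. It fell 1.37-fold with no overlap between groups (log2 change -0.46 ± 0.09 SE, limma adjusted p = 0.0474). Ddx56, the counterpart of yeast Dbp9 in large subunit assembly, was at 8.58 and 8.62 with 4OHT, against 9.03 and 8.99 with ethanol. It fell 1.33-fold, again with both 4OHT arrays below both ethanol arrays (log2 change -0.41 ± 0.08 SE, limma adjusted p = 0.0489). Helicases of both subunits were therefore among the 4. Ddx49 and Ddx56 lay close to the threshold. With no filter on dim genes the adjusted p was 0.0634 for Ddx49 and 0.0704 for Ddx56, and without probe sets of the _x_at and _s_at kinds it was 0.0508 for Ddx49 and 0.0524 for Ddx56. Leaving out any 1 of the 4 arrays, which leaves 1 residual degree of freedom, ended the call of all 4 genes, with adjusted p-values from 0.0863 to 0.192, while all 4 kept a change below 0.

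A further 6 ribosome assembly helicases had log2 changes of much the same size but did not pass. Ddx21, which acts in ribosomal RNA transcription and processing, was at 10.26 and 10.40 with 4OHT, against 10.72 and 10.79 with ethanol (log2 change -0.42 ± 0.09 SE, limma adjusted p = 0.0572). It passed with a stricter filter on dim genes, at the 60th percentile (adjusted p = 0.0382), with the mean of its probe sets (adjusted p = 0.0300) and with an intensity trend (adjusted p = 0.0218). Dhx33, a DEAH box gene known for a part in ribosomal RNA transcription, was at 7.38 and 7.58, against 7.83 and 7.99 (-0.43 ± 0.11, adjusted p = 0.0829). Ddx51, the counterpart of yeast Dbp6, was at 8.40 and 8.32, against 8.82 and 8.67 (-0.38 ± 0.10, adjusted p = 0.0793).

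In all of these the 4OHT arrays lay below the ethanol arrays. The same held for Ddx31, the counterpart of yeast Dbp7, at 7.53 and 7.63 with 4OHT, against 8.04 and 7.86 with ethanol (adjusted p = 0.0968). It held too for Ddx10, the counterpart of yeast Dbp4 in small subunit assembly, at 9.23 and 9.44, against 9.66 and 9.81 (adjusted p = 0.0973). Dhx37, the counterpart of yeast Dhr1, which releases the U3 snoRNA, was the dimmest of the 15. It was at 5.67 and 5.37 with 4OHT, against 6.08 and 5.79 with ethanol, and its log2 change of -0.42 had the wider SE of 0.15 (adjusted p = 0.164).

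The remaining 5 members of the group had log2 changes between -0.16 and 0.00, and none had an adjusted p under 0.3. Ddx47, the counterpart of yeast Rrp3, was at 9.52 and 9.43 with 4OHT, against 9.60 and 9.67 with ethanol (adjusted p = 0.317). Ddx24, the counterpart of yeast Mak5, was at 9.52 and 9.61, against 9.63 and 9.72 (adjusted p = 0.473). For both genes the groups did not overlap, but they lay close together. Ddx52, the counterpart of yeast Rok1, was at 9.33 and 9.46 with 4OHT, against 9.50 and 9.37 with ethanol, and Ddx55, the counterpart of yeast Spb4, at 7.40 and 7.02, against 7.53 and 7.13. In these 2 genes the groups overlapped.

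**Figure D2:**
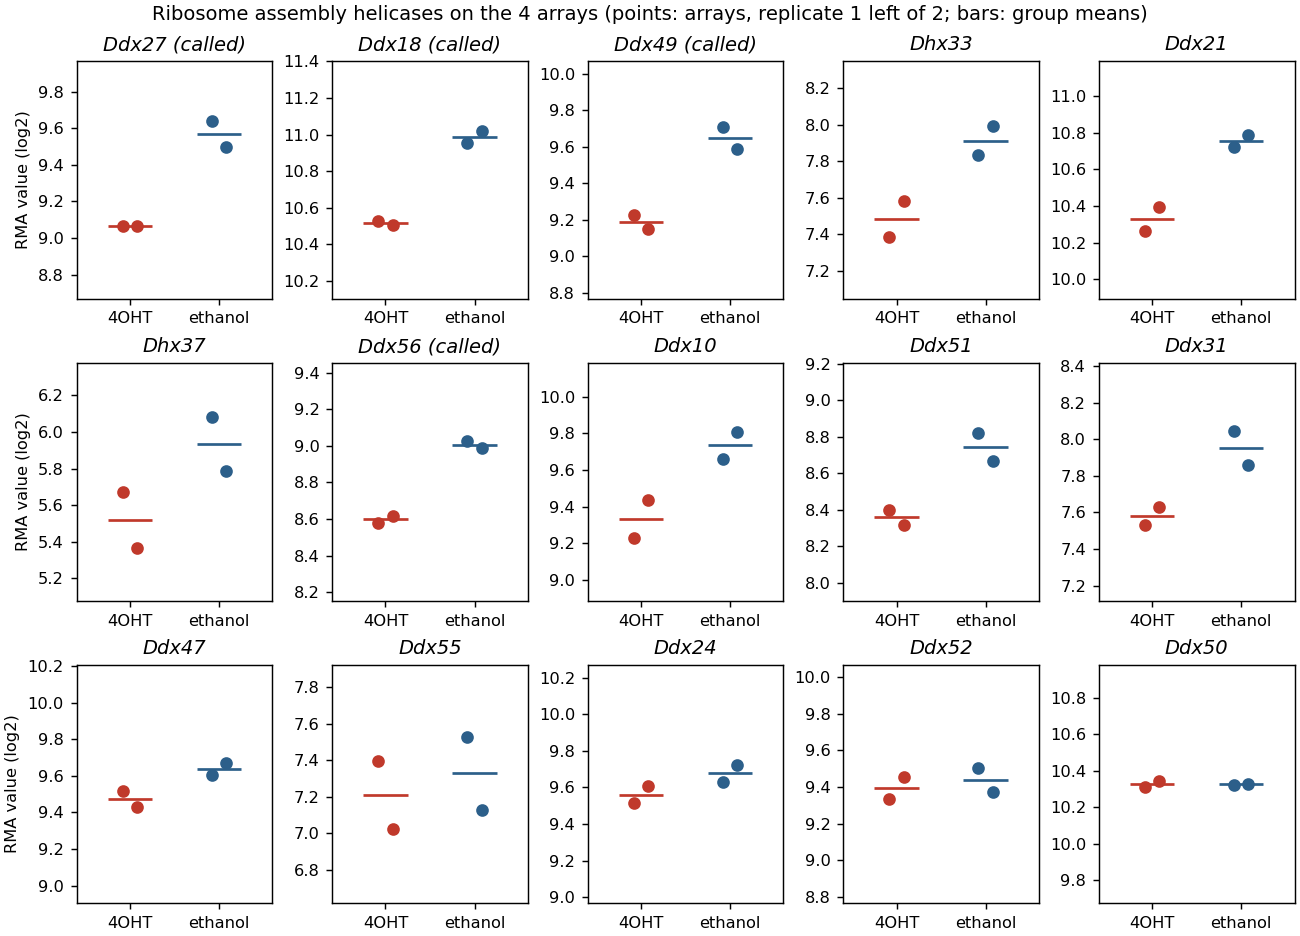
RMA value (log2) of each of the 15 ribosome assembly helicases on the 4OHT arrays (left, red) and the ethanol arrays (right, blue); points are arrays, bars are group means, and every panel spans the same log2 range. The 10 genes with an unadjusted p under 0.05 show both 4OHT arrays below both ethanol arrays, while Ddx55, Ddx52 and Ddx50 overlap.

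Ddx21 and Ddx50 are the closest pair in this group. They are paralogues, and in the RefSeq gene table of assembly GRCm38.p6 they are neighbours on chromosome 10 with 0 protein-coding genes between them. Ddx50 was at 10.31 and 10.34 with 4OHT, against 10.32 and 10.33 with ethanol, a log2 change of 0.00 with a 95% interval from -0.21 to 0.21 (limma adjusted p = 0.992). With each array centred on its median the sign of this value turned, at -0.01. The change of Ddx21 minus that of Ddx50 was -0.43. Within each array, Ddx21 minus Ddx50 was -0.05 and 0.05 with 4OHT, against 0.40 and 0.46 with ethanol, so the groups did not overlap. The exact two-sided permutation p was 0.333, which is the smallest that 2 arrays against 2 allow (0.500 after Benjamini-Hochberg adjustment over 3 paralogue pairs). The 2 other probe sets of Ddx50 above the floor had changes of 0.12 and 0.41, neither called.

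Start regions of the 4 called genes and of Ddx21 and Ddx50 are shown to set the genes that fell beside the pair of neighbours, in which Ddx21 was lower without passing and Ddx50 had a change of 0.00. The sequences are RefSeq promoter windows of build GRCm38.p6, from 250 bases before to 50 bases after the gene's start, 5′ to 3′ on the gene's strand. Capitals mark exact matches to CGGAAG on either strand, a stretch that ETS factors read. Ddx18 lies at chr1:121567931-121568230 (minus strand), Ddx27 at chr2:167015063-167015362 (plus strand), Ddx49 at chr8:70302422-70302721 (minus strand), Ddx56 at chr11:6267680-6267979 (minus strand), Ddx21 at chr10:62602249-62602548 (minus strand) and Ddx50 at chr10:62651169-62651468 (minus strand). Ddx49 and Ddx50 have 2 windows each, of which 1 is printed.
Ddx18: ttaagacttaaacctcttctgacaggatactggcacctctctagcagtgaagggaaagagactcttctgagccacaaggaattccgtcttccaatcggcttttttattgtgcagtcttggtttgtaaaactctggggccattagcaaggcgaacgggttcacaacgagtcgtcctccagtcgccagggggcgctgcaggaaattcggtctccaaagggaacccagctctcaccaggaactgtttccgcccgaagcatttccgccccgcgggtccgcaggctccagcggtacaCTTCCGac
Ddx27: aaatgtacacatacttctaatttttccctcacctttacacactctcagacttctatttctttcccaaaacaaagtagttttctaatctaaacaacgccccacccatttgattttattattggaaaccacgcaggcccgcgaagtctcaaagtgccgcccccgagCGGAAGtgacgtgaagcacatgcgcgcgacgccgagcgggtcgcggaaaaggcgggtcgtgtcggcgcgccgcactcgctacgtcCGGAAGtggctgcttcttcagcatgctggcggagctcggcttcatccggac
Ddx49: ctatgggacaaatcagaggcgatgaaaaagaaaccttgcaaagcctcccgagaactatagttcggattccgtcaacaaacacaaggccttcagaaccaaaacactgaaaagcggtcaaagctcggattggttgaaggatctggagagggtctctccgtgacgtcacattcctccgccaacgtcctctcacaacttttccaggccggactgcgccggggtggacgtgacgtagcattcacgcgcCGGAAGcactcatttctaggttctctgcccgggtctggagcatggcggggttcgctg
Ddx56: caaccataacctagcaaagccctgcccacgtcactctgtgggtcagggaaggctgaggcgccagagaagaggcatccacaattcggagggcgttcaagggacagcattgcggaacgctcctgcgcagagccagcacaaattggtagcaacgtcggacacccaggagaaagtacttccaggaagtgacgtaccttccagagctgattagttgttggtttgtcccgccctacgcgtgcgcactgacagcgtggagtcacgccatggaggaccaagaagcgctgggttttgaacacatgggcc
Ddx21: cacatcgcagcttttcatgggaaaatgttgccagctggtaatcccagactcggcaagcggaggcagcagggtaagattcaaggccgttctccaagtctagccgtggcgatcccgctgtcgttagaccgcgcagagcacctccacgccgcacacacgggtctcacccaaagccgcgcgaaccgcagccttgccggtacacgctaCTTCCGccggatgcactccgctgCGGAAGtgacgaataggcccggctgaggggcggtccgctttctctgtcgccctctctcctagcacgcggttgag
Ddx50: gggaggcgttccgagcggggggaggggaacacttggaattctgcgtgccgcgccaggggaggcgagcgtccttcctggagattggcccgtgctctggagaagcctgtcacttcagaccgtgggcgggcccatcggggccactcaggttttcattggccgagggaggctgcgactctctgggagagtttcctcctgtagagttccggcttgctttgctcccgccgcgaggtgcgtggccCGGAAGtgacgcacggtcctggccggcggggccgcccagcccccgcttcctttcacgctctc

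A window was given for 43 of the 48 members. A set of 3 motifs were searched on both strands, chosen after the values were seen: CACGTG, the E-box that MYC reads with MAX, GTGGGAA, the core that RBPJ, the DNA-binding partner of Notch, reads, and CGGAAG. Hits of different motifs overlapped at 0 places in the members' windows. CACGTG lay in a window of 1 of 15 ribosome assembly helicases, Dhx33, and of 6 of 28 other members (21.4%), against 8.09% of all 27025 genes in the table and 11.6% of tested genes. The 28 include members that were too dim to test, and Ddx25 and Ddx4 among the 6 are such members. GTGGGAA also lay in 1 of the 15, Ddx55, and in 5 of the 28 others (17.9%), against 7.25% of all genes and 7.16% of tested genes. None of the 6 windows above holds either. CGGAAG lay in windows of 11 of the 15 ribosome assembly helicases and of 15 of the 28 other members, against 35.3% of tested genes and 18.8% of all genes. Counted by window, CGGAAG lay in 16.9%, CACGTG in 7.15% and GTGGGAA in 6.38% of all 32851 windows. Ddx56 fell and its window holds no exact match to the 3. It does hold aggaag, which differs from CGGAAG in its first base alone, and such near matches were not counted. Ddx50, whose change was 0.00, has CGGAAG in the window printed and not in its other one. A link between these motifs and the changes was not tested. The E-box of Dhx33 stands in this stretch at chr11:71004435-71004494 (minus strand), with CACGTG in capitals.
Dhx33: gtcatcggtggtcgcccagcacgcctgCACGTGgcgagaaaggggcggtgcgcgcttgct

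The helicases of the spliceosome did not pass in either direction. None of 10 was called by limma, and their median log2 change was -0.06. At an unadjusted p under 0.05, 1 was lower and none higher, against 13.2% and 12.3% of all tested genes. The lowest was Dhx35, found in human spliceosomes, with a log2 change of -0.28 (adjusted p = 0.169). The others ranged from -0.23 for Ddx46, the counterpart of yeast Prp5 in branch site recognition, to 0.17 for Dhx8, the counterpart of yeast Prp22, which releases spliced mRNA. Between them lay Ddx41, Ddx23, Dhx16, Ddx39b, Dhx15, Dhx38 and Ddx42. Dhx15, the counterpart of yeast Prp43, which takes spent spliceosomes apart and also acts in ribosome assembly, was at 12.59 and 12.62 with 4OHT, against 12.65 and 12.58 with ethanol. Its log2 change of -0.01 had a 95% interval from -0.22 to 0.20, and turned to 0.02 with quantile normalization.

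Ddx39a and Ddx39b, close paralogues that hand mRNA to the export machinery, are the next pair. Ddx39a was at 11.74 and 11.67 with 4OHT, against 12.03 and 12.05 with ethanol (log2 change -0.34 ± 0.08 SE, limma adjusted p = 0.0789). Ddx39b, which also acts in early spliceosome assembly and had the probe set with the highest mean value of all members, was at 13.05 and 12.89, against 12.97 and 13.08 (-0.05 ± 0.10, adjusted p = 0.776). The 4OHT arrays lay below the ethanol arrays for Ddx39a and overlapped with them for Ddx39b. The change of Ddx39a minus that of Ddx39b was -0.28, with an exact two-sided permutation p of 0.333 (0.500 after Benjamini-Hochberg adjustment). With 2 arrays against 2 no smaller p is possible, so this test could not separate the pair. Ddx39a had 4 probe sets above the floor and their changes lay between -0.35 and -0.31; it passed with an intensity trend (adjusted p = 0.0163). Ddx19b, which remodels mRNA as it leaves the nuclear pore, was at 7.50 and 7.72 with 4OHT, against 7.26 and 7.50 with ethanol (adjusted p = 0.321). No probe set naming Ddx19a or Ddx3y alone was found, so those paralogues were not compared.

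Members that act in translation and mRNA turnover did not pass either, 0 of 5 in limma, with a median log2 change of 0.03. At an unadjusted p under 0.05, 2 were higher and none lower, against 12.3% and 13.2% of all tested genes. The 2 were named after their values were seen. Dhx34, which acts in nonsense-mediated mRNA decay, was at 7.89 and 7.83 with 4OHT, against 7.46 and 7.52 with ethanol (log2 change 0.37 ± 0.09 SE, limma adjusted p = 0.0652). Ddx6, the helicase of cytoplasmic P-bodies that represses translation and activates decapping, was at 11.05 and 11.08, against 10.40 and 10.74 (0.50 ± 0.13, adjusted p = 0.0840). Both genes were higher on both 4OHT arrays without overlap, as were 26.7% of all tested genes. Dhx34 passed with the stricter filter on dim genes (adjusted p = 0.0428) and Ddx6 with an intensity trend (adjusted p = 0.0395). The 2 other probe sets of Ddx6 above the floor had changes of -0.02 and -0.15, so its probe sets disagreed, and with their mean its change was 0.10 (adjusted p = 0.576). Ddx3x, a helicase that helps translation start on structured mRNAs, was at 12.63 and 12.70 with 4OHT, against 12.59 and 12.68 with ethanol (0.03, with a 95% interval from -0.19 to 0.26). Dhx29, which helps ribosomes scan, and Dhx36, which unwinds G-quadruplexes, had changes of -0.25 and -0.08.

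Ddx5 and Ddx17 are paralogues that serve as transcription co-regulators and splicing factors. Ddx5 was at 12.95 and 13.02 with 4OHT, against 12.77 and 12.76 with ethanol (log2 change 0.22 ± 0.08 SE, limma adjusted p = 0.187). Ddx17 was at 12.42 and 12.34, against 12.16 and 11.96 (0.32 ± 0.10, adjusted p = 0.130). The 4OHT arrays were the higher ones for both genes, as they were for 26.7% of all tested genes. The changes differed by -0.10 (Ddx5 minus Ddx17, exact two-sided permutation p = 0.667). Both passed with an intensity trend, at adjusted p-values of 0.0374 and 0.0464. Of 6 Ddx5 probe sets above the floor, 5 had changes from 0.01 to 0.29 and 1 was at -0.29. Ddx1, a member of the tRNA ligase complex, was at 11.17 and 11.19 with 4OHT, against 11.48 and 11.45 with ethanol (-0.28 ± 0.08, adjusted p = 0.105), and passed with an intensity trend (adjusted p = 0.0320). Ddx20, which is Gemin3 of the SMN complex, had a change of -0.22 (adjusted p = 0.190) and Dhx9, RNA helicase A, one of 0.09. The other Dhx9 probe set above the floor was at -0.10, so their signs disagreed. In limma none of these 5 genes was called. At an unadjusted p under 0.05, 2 were lower and 2 higher, against 13.2% and 12.3% of all tested genes.

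The other tested members had small changes in the probe set with the highest mean. Dhx30 and Ddx28, which act in assembly of mitochondrial ribosomes, were at 0.09 and -0.07, and Ddx11, a DNA helicase gene of sister chromatid cohesion, was at -0.01. Other probe sets of Dhx30 above the floor had changes of -0.09, -0.20 and 0.46, so its probe sets disagreed. The last had an unadjusted limma p of 0.0459 in the fit of all probe sets, and none was called. Of the genes placed in no role list, Dhx57, Dhx40, Ddx59 and Dhx32, log2 changes lay between -0.10 and 0.21. Read from the probe set with the highest mean, none of these 7 genes was called by limma or reached an unadjusted p under 0.05. Of the untested genes, Ddx43 and Ddx60 lay between 2.73 and 3.30 on all arrays, far below the floor.

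Other probe sets of the members gave a second reading of the same samples. The 48 genes had 104 probe sets, 90 of them above the floor, and 26 genes had more than 1 above it. In 14 of the 26 all changes were below 0, in 2 all were above 0 and in 10 the signs were mixed. Among the 9 ribosome assembly helicases with more than 1, all changes were below 0 in 6. In a fit of all 34945 probe sets, 2 member probe sets were called lower and none higher, against 0.953% and 1.52% of all probe sets. They were the second probe set of Ddx18, with a log2 change of -0.60 (adjusted p = 0.0434), and the second one of Ddx21, at -0.59 (adjusted p = 0.0465). The probe sets by which the 4 called genes were read did not pass in that fit, with adjusted p-values of 0.0744 for Ddx18, 0.0716 for Ddx27, 0.0902 for Ddx49 and 0.102 for Ddx56. For Ddx49, another probe set was at -0.53 and the dimmest one at 0.12. When a gene's probe sets were averaged, Ddx18 (adjusted p = 0.0532), Ddx27 (adjusted p = 0.0732) and Ddx49 (adjusted p = 0.0972) lost their calls; the second probe set of Ddx27 lies below the floor.

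**Figure D3:**
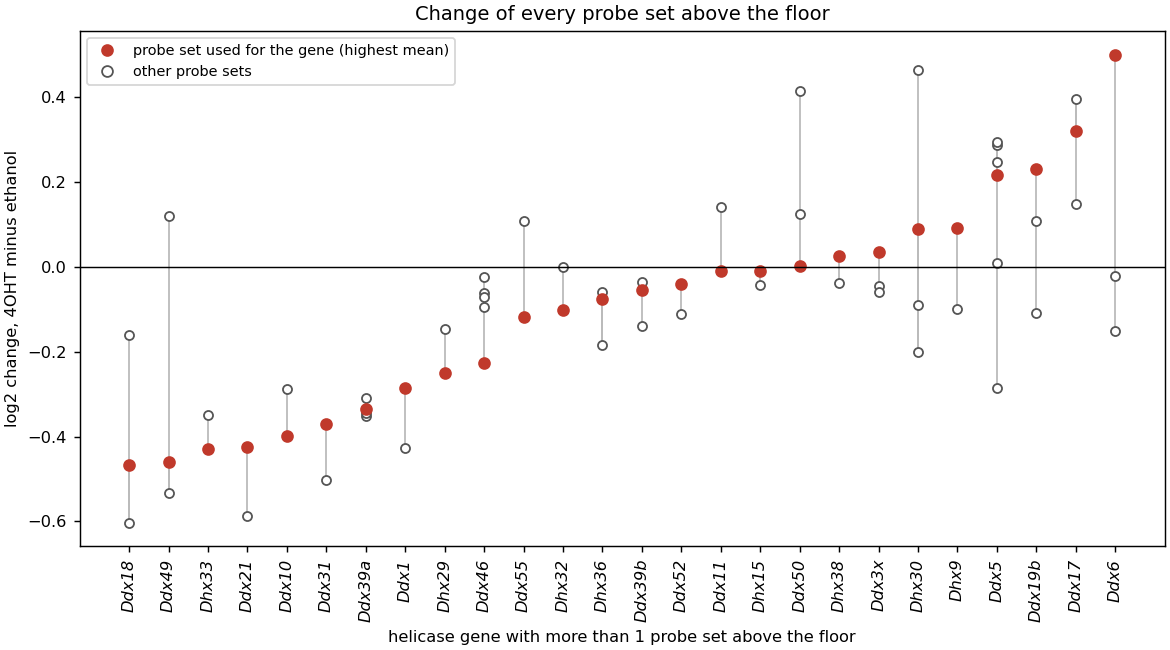
Log2 change with 4OHT, relative to ethanol, on the y axis for every probe set above the floor of the 26 helicase genes with more than 1; red points are the probe sets used for the gene and open points the others. Ddx18, Dhx33, Ddx21, Ddx10, Ddx31, Ddx39a and Ddx1 have all points below 0, while those of Ddx6, Dhx30, Ddx50 and Ddx49 lie on both sides or span a wide range.

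Genes that work beside these helicases were read from lists of other factors of the same processes. Of 34 tested other ribosome assembly factors, 24 fell, none rose and 10 did not pass, against 3.57% of all tested genes called lower. All 34 had a change below 0, against 52.3% of all tested genes, with a median of -0.52 and a range from -1.10 to -0.09. Noc2l, a factor of large subunit assembly, fell 1.65-fold (limma adjusted p = 0.0165). It was at 9.81 and 9.86 with 4OHT, against 10.54 and 10.57 with ethanol. Bop1, of the PeBoW complex, fell 1.59-fold (10.11 and 10.06, against 10.71 and 10.81; adjusted p = 0.0205), and Nop58, of the box C/D snoRNPs, had a log2 change of -0.85 (adjusted p = 0.0217). The share of ribosome assembly genes called lower was thus 4 of 15 among helicases and 24 of 34 among the other factors, with no test of the difference. Of 29 other spliceosome factors 1 fell, Prpf31 of the tri-snRNP (1.44-fold, adjusted p = 0.0299), and none rose, with a median of -0.12. This 1 gene is 3.45% of the list, near the 3.57% of all tested genes called lower. None of 13 other export factors was called (2 lower and none higher at an unadjusted p under 0.05, median -0.09). None of 20 other translation start and turnover factors was called (none lower and 2 higher, median 0.01). At the same unadjusted threshold, 13.2% of all tested genes were lower and 12.3% higher. The calls of the ribosome assembly factors and of Prpf31 were all lost when any 1 array was left out.

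**Figure D4:**
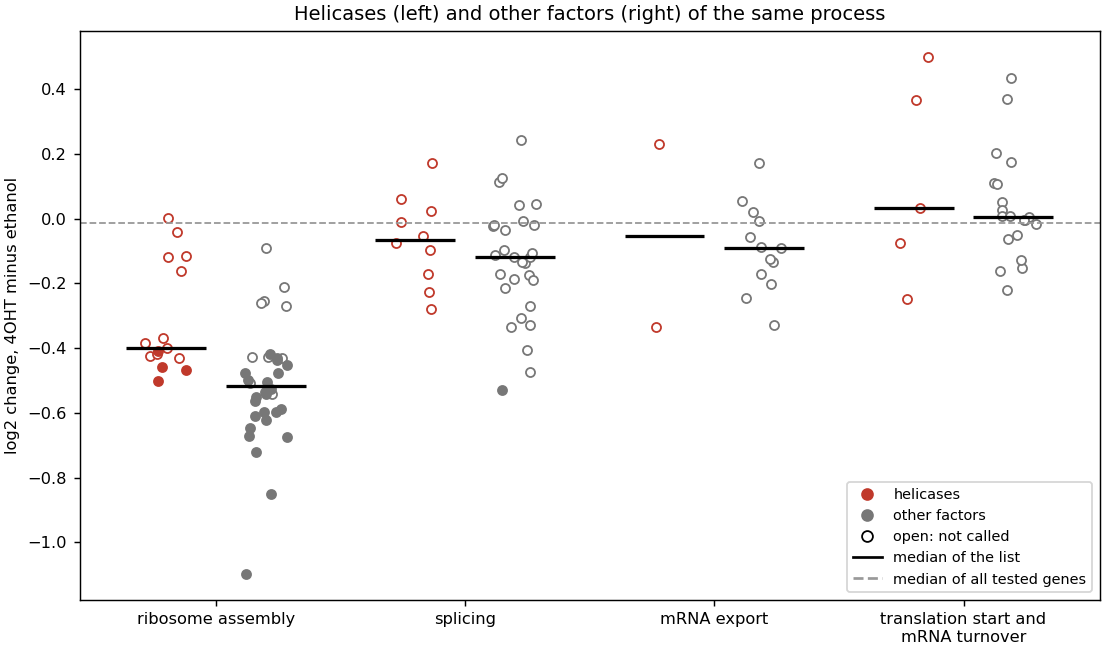
Log2 change with 4OHT, relative to ethanol, on the y axis for tested helicases (red, left) and other factors (grey, right) of 4 processes; each point is a gene, filled where called, with black bars at list medians and a dashed line at the median of all tested genes. The 2 ribosome assembly lists have medians of -0.40 and -0.52, and the other lists have medians between -0.12 and 0.03.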

How the data were processed

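The deposited values are log2 expression from RMA, as the submitters' processing notes name it; the method corrects background, equalises the distributions of probe signals between arrays and summarises each probe set. No source used here gives its version. That the scale is log2 was read from the values. The table had 45101 probe sets, 34945 of which named 1 gene in the platform annotation, controls aside. Genes were read from the probe set with the highest mean, and those under the 40th percentile of named probe sets (4.81) were not tested, leaving 11581 of 18193.

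The 4OHT and ethanol groups were compared by lmFit and eBayes of limma 3.58.1 (R 4.3.3) in a fit of the 4 arrays without a block. P-values were adjusted by Benjamini-Hochberg over all tested genes. SEs and intervals are limma's. The members and lists were chosen with earlier results of these data known. Values are printed for called members, for the other members of a role list with a called one, for the paralogue pairs and for the member with the highest mean; partner lists give up to 3 called genes. Motifs and members named outside this rule were chosen after their values were seen. The alternatives were other filters, scalings, thresholds and probe set rules, an intensity trend, the replicate block and each array left out. Replicate numbers are shared by label only: with 2 pairs, the correlation of their deviations (0.34) does not settle a pairing.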

Additional observations from a re-analysis of the deposited data

How the results depend on the processing

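The 4 calls rest on all 4 arrays and lie near the threshold: leaving out 1 array gave 0 lower and 0 higher members each time, 0 lower ribosome assembly helicases, other ribosome assembly factors and other spliceosome factors, and 12 to 66 lower and 9 to 125 higher genes overall. No change of a called member turned its sign in any of the 14 alternatives. Filters, thresholds, the intensity trend and the replicate block leave the log2 change itself as it was. A sign could turn only with other scalings, other probe set rules or an array left out. Lower members, 4 as reported, numbered 2 with no filter and 5 with the 60th percentile filter. They numbered 2 with the mean of probe sets, 2 without _x_at and _s_at probe sets and 7 with an intensity trend. At an adjusted p under 0.1 there were 10, and at one under 0.01 there were 0. In the same order, ribosome assembly helicases made up 2, 5, 2, 2, 5, 9 and 0 of these. Higher members, 0 as reported, numbered 1 with the 60th percentile filter, 3 with an intensity trend and 2 at an adjusted p under 0.1. By role these were 1, 1 and 2 translation and turnover helicases, and with an intensity trend also 1 lower and 2 higher co-regulator and nuclear helicases. Other ribosome assembly factors lower numbered 24 as reported, 0 at an adjusted p under 0.01 and from 19 to 29 in the other settings that kept all 4 arrays. Other spliceosome factors lower, 1 as reported, numbered 2 with the mean of probe sets, 2 without _x_at and _s_at probe sets, 6 with an intensity trend, 3 at an adjusted p under 0.1 and 0 at one under 0.01. Over all genes, 343 of 18193 were lower with no filter and 358 of 10741 with the mean of probe sets. Without _x_at and _s_at probe sets 355 of 11267 were lower, and with the 60th percentile filter 508 of 8356 were lower and 500 higher. Members tested in these settings numbered 48, 44, 43 and 42. Of 11581 genes, 636 were lower and 663 higher with an intensity trend. At an adjusted p under 0.1, 824 were lower and 853 higher, and at one under 0.01, 22 and 24. With the replicate number as a block, 11 members were lower and 2 higher, of which 10 lower ones were ribosome assembly helicases (the 4 called genes with Ddx21, Dhx33, Ddx51, Ddx31, Ddx10 and Dhx37), 1 was Ddx39a, and the 2 higher ones were Ddx6 and Dhx34, with 5 lower spliceosome factors, 1 higher translation or turnover factor, and 1031 lower and 1104 higher genes in all. The numbers are shared by label only, so this fit is given as an alternative. Quantile normalization and median centring kept all 4 calls.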

Other observations

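In Ddx55 and Dhx37 the samples numbered 1 were higher than those numbered 2 within each treatment. This order is not particular to them: other members showed it too, among them Ddx49, Ddx51 and Ddx17. The reverse order was found in others, among them Ddx10, Ddx21 and Dhx33. Ddx55 was at 7.40 with 4OHT and 7.53 with ethanol in the samples numbered 1, and at 7.02 with 4OHT and 7.13 with ethanol in those numbered 2. Dhx37 was at 5.67 and 6.08 in the samples numbered 1, against 5.37 and 5.79 in those numbered 2, with 4OHT first in each pair; 4OHT was the lower one within each number. These genes were named after their values were seen, and the labels do not say what the number stands for.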
